A study of Homo sapiens with 9 samples.

Results

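The genes described here are a panel of 39 symbols of the integrated stress response around the transcription factor ATF4 and of the endoplasmic reticulum (ER) stress response. They were chosen by name, with earlier results of these data known, and 38 of the 39 were found among the gene symbols of the expression tables. ASNS, the remaining symbol, is not analysed here. RNA-seq had been performed on A549 cells, an established human lung adenocarcinoma line, to find transcripts that depend on Cyclin K, the partner of the transcription elongation kinases CDK12 and CDK13. For 48 h the cells were transfected with scrambled siRNA or with either of 2 siRNAs against the CCNK transcript, siCyclin K#1 and siCyclin K#2, and each of the 3 groups has 3 libraries. The labels do not say whether the 3 libraries of a group came from separate cultures, and the methods speak of independent experiments only for the data in general, so p-values measure the spread between these libraries, which may be technical. All 9 libraries are of this single line after transient transfection with an siRNA, and the target of both active siRNAs is the same transcript.

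Unfolded protein in the ER is sensed by the membrane proteins PERK (EIF2AK3), IRE1 (ERN1) and ATF6. PERK phosphorylates the translation factor eIF2, which lowers general translation but raises translation of the ATF4 mRNA, and ATF4 then activates genes of amino acid supply, redox balance and cell death. IRE1 splices the XBP1 mRNA, and XBP1 and cleaved ATF6 activate ER chaperones and the machinery that removes misfolded protein. Neither ATF4 protein nor XBP1 splicing is seen in gene-level RNA values.

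Libraries held 31333776 to 33767932 counted units each, as recovered from the steps between low values, where it is not stated whether a unit is a read or a read pair. CCNK, which encodes Cyclin K, was at 7.02 ± 0.107 FPKM (fragments per kilobase of exon scaled to library size, mean ± SD, n = 3) in scrambled cells, at 0.809 ± 0.0857 with siCyclin K#1 and at 0.844 ± 0.0661 with siCyclin K#2. Of 5 epithelial markers, KRT8 and KRT18 were abundant in all 9 libraries and CDH1 was at 1.19 to 4.60 FPKM, whereas KRT19 and EPCAM were near 0. Of 7 alveolar type II markers found, the surfactant genes, LAMP3, NAPSA and NKX2-1 were near 0 and ABCA3 was at 5.76 to 11.2 FPKM, with all 6 siCyclin K libraries above scrambled. Of the leukocyte markers, PTPRC was at most 0.00685 FPKM and CD68, a lysosomal protein that many cell types make, was at 30.0 to 39 FPKM. The endothelial markers PECAM1 and CDH5 were at most 0.0210 FPKM. The 4 fibroblast markers summed to 1.91 to 2.32 FPKM in scrambled libraries, 13.9 to 14.9 with siCyclin K#1 and 3.24 to 3.44 with siCyclin K#2, nearly all of it COL1A1, while COL1A2, DCN and PDGFRB were at most 0.136 FPKM in any library. The part of these marker differences in the results was not tested. Across 21048 tested genes, limma called 26.8% higher and 18.1% lower with siCyclin K#1, and 19.8% higher and 15.2% lower with siCyclin K#2, at a Benjamini-Hochberg adjusted p under 0.05. These shares are the background for the counts that follow. All 38 genes passed the filter on low values. A fold change here is on the log2(FPKM + 0.1) scale, errors of fold changes are standard errors, and rose and fell are written only of an adjusted p under 0.05. The 2 comparisons with scrambled share the same control libraries. In bulk RNA, a change in how many cells use a gene and a change in RNA per cell cannot be told apart.

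The promoters of 6 of the genes hold the ER stress element (ERSE), the site through which ATF6 and XBP1 are known to act together with NF-Y, and they are shown because all 6 genes rose with siCyclin K#1. The element was searched on both strands as CCAAT, 9 bases and CCACG, and the shorter ERSE-II as ATTGG, 1 base and CCACG. Each line below is the 250 bases before the gene start in RefSeq (GRCh38.p14), written 5′ to 3′ on the strand of the gene. Capitals mark the match, which reads as its reverse complement where it lies on the opposite strand. The windows are HSPA5 chr9:125241344-125241593 (minus), HSP90B1 chr12:103930160-103930409 (plus), CALR chr19:12938359-12938608 (plus), PDIA6 chr2:10812786-10813035 (minus), XBP1 chr22:28800570-28800819 (minus) and CRELD2 chr22:49918384-49918633 (plus).
HSPA5: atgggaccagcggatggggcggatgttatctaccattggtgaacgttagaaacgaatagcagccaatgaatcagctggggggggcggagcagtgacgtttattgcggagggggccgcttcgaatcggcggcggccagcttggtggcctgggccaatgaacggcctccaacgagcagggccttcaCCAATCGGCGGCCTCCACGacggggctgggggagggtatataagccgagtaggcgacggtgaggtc
HSP90B1: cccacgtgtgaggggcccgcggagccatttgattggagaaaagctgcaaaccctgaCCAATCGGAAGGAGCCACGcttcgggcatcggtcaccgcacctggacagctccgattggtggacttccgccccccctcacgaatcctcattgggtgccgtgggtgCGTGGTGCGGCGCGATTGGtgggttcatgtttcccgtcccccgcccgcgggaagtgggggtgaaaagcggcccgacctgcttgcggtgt
CALR: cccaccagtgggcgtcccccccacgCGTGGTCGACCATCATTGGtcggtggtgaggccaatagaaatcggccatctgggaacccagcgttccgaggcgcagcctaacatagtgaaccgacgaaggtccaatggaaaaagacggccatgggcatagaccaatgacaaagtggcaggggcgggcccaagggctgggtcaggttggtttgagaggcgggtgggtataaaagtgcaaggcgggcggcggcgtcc
PDIA6: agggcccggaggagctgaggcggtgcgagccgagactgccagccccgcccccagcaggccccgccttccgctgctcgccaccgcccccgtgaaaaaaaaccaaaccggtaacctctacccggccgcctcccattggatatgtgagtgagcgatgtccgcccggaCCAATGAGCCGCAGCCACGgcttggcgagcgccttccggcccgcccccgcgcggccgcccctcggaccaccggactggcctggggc
XBP1: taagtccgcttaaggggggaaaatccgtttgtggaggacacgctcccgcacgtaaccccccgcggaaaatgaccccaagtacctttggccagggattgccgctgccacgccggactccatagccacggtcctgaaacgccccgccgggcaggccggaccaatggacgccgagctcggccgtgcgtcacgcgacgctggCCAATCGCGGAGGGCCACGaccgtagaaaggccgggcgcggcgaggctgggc
CRELD2: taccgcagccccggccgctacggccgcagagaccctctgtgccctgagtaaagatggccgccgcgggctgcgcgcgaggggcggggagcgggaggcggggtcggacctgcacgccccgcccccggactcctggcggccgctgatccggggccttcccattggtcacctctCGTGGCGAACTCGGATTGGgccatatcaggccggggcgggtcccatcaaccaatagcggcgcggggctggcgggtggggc

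ERSE-II was found before HERPUD1 chr16:56931892-56932141 (plus), HYOU1 chr11:119057206-119057455 (minus) and SDF2L1 chr22:21642052-21642301 (plus). These windows are shown because the 3 genes did not move alike.
HERPUD1: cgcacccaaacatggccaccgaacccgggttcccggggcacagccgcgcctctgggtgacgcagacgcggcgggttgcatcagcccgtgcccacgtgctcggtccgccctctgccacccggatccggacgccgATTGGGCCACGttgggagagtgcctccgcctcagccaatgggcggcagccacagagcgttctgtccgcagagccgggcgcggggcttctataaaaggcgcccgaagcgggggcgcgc
HYOU1: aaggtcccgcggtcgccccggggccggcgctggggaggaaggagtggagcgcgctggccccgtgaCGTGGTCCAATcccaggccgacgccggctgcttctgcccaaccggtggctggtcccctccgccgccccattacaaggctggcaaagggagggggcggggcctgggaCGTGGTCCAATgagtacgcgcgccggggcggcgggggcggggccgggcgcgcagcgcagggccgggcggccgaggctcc
SDF2L1: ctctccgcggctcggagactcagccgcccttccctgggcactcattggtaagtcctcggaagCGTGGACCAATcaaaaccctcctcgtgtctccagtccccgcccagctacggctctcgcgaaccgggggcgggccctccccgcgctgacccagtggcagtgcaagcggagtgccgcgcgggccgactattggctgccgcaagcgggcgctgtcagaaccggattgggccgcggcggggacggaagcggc

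RefSeq windows matched 35 of the 39 symbols, and ALDH1L2, NUPR1, PSPH and SHMT2 had none. Over all 35116 windows of 300 bases, 0.0769% held ERSE and 0.0541% held ERSE-II. ERSE was first described in promoters of ER chaperones, so that its presence in HSPA5, HSP90B1 and CALR is background and not a finding. Of the 6 genes with ERSE, 6 were higher with siCyclin K#1 and 5 with siCyclin K#2, the exception being XBP1. Of all tested genes, 26.8% and 19.8% were higher. The panel's ER chaperones without an ERSE match mostly rose too. HYOU1, DNAJC3, MANF and PDIA4 rose with each siRNA, and DNAJB9 and SDF2L1 moved in opposite directions with the siRNAs. Of 9 other tested genes with ERSE, 6 were higher and 1 lower with siCyclin K#1, and 4 were higher and 1 lower with siCyclin K#2. SERP1, which protects nascent membrane proteins in the ER, was the one that fell with each siRNA. ALG12, also among these 9, overlaps exons of CRELD2 on the opposite strand by 168 bases, so the counts of the 6 and the 9 genes are not independent. The 3 ERSE-II genes were split: HYOU1 rose with each siRNA, HERPUD1 rose with siCyclin K#1 and was not called with siCyclin K#2, and SDF2L1 fell with siCyclin K#1 and rose with siCyclin K#2. Of 10 other tested genes with ERSE-II, 4 were higher and 6 lower with siCyclin K#1, and 4 were higher and 1 lower with siCyclin K#2. The UPR element, searched as TGACG followed directly by TGG, was in 0.729% of windows and in that of HYOU1, where it shared 5 bases with an ERSE-II match. The C/EBP-ATF response element, searched as TGATG, 1 base and AA, was in 3.62% of windows and in those of CHAC1, CEBPG, HERPUD1 and ASNS. A match is a string of letters in this window and not a shown binding site.

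**Figure D1:**
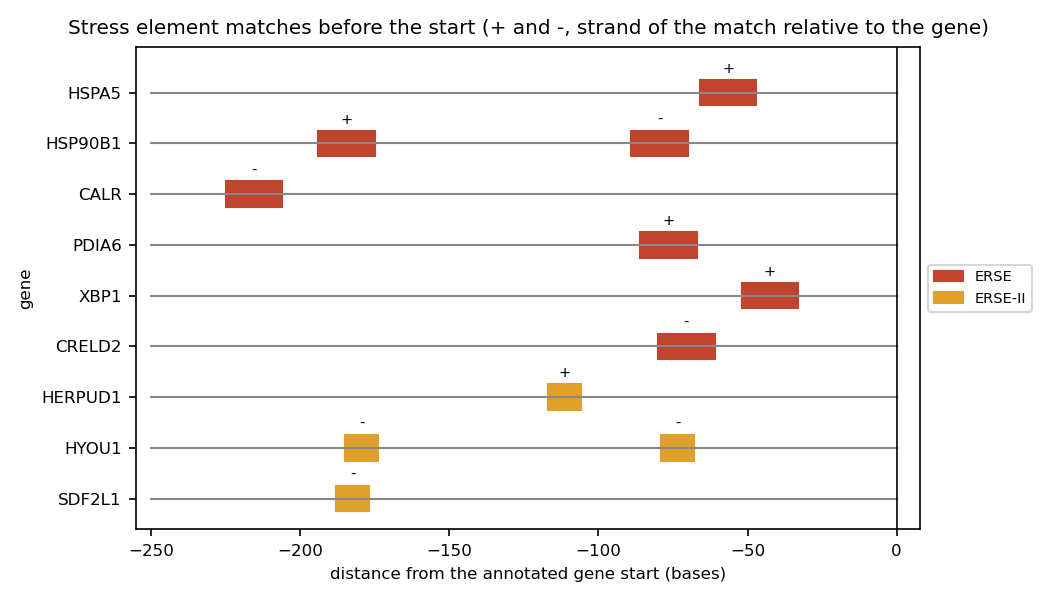
Positions of ERSE and ERSE-II matches in the 250 bases before the RefSeq start of 9 genes. The horizontal axis is the distance from the start in bases, each line is 1 gene and each box is 1 match, with the strand of the match relative to the gene above it. HSP90B1 and HYOU1 hold 2 matches each, and the ERSE of CALR lies farthest from the start.

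Depletion of Cyclin K was accompanied by higher RNA of most of the panel but by lower RNA of ATF4 itself. With siCyclin K#1, 25 of 38 genes rose (65.8%, against 26.8% of all tested genes), 8 fell (21.1%, against 18.1%) and 5 did not pass the test. The median log2 fold change was 0.49, against 0.10 over all tested genes. With siCyclin K#2, 22 rose (57.9%, against 19.8%), 3 fell (7.89%, against 15.2%) and 13 did not pass, with a median of 0.29 against 0.01. Relative to the median of all tested genes, the panel median lay 0.39 higher with siCyclin K#1 and 0.28 higher with siCyclin K#2. Median-ratio rescaling and quantile normalization of the libraries moved the all-gene median with siCyclin K#1 from 0.10 to 0.00089 and -0.019, so that small rises near that shift, 0.20 for PSAT1, 0.23 for DNAJB9 and 0.17 for MANF, were 0.10, 0.13 and 0.07 relative to it. At the thresholds of the study's methods, a fold change over 3 with an unadjusted p under 0.01, siCyclin K#1 gave 3 genes, NUPR1, DDIT4 and PCK2, where 4.67% of all tested genes passed. siCyclin K#2 gave 0 genes (1.94% of all tested genes passed), although 24 of the 38 were higher and 5 lower at an unadjusted p under 0.05 in limma, against 23.6% and 19.4% of all tested genes. A fold change over 2 beside an adjusted p under 0.05 left 7 higher (9.63% of all tested genes) and 1 lower (4.75%) with siCyclin K#1, and 3 higher (4.71%) and 0 lower (3.07%) with siCyclin K#2.

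Taken as 1 group, the 6 siCyclin K libraries gave 19 genes that rose (17.0% of all tested genes did), 3 that fell (11.5%) and 1 gene past the thresholds of the methods (2.29%), DDIT4. In this fit the difference between the siRNAs counts as spread. In 19 genes all 6 siCyclin K libraries lay above all 3 scrambled libraries (18.9% of all tested genes) and in 3 genes all 6 lay below (13.7%). For these 22 genes the exact two-sided permutation test gave p = 0.0238, the smallest that 6 against 3 libraries allow. Complete separation fixes this p, so it adds nothing to the separation by which these genes were picked. The groups overlapped in the other 16. Compared directly, siCyclin K#1 gave higher values than siCyclin K#2 for 12 genes (17.1% of all tested genes) and lower values for 12 (12.3%), and 0 passed a fold change over 3 (1.53%). At an unadjusted p under 0.05 in limma these counts were 13 and 12, against 22.7% and 15.7% of all tested genes. With a fold change over 2 as well, the direct comparison gave 1 higher gene (3.64% of all tested genes) and 1 lower (2.0%), and 6 rose (5.73%) and 0 fell (2.86%) with both siRNAs as 1 group.

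**Figure D2:**
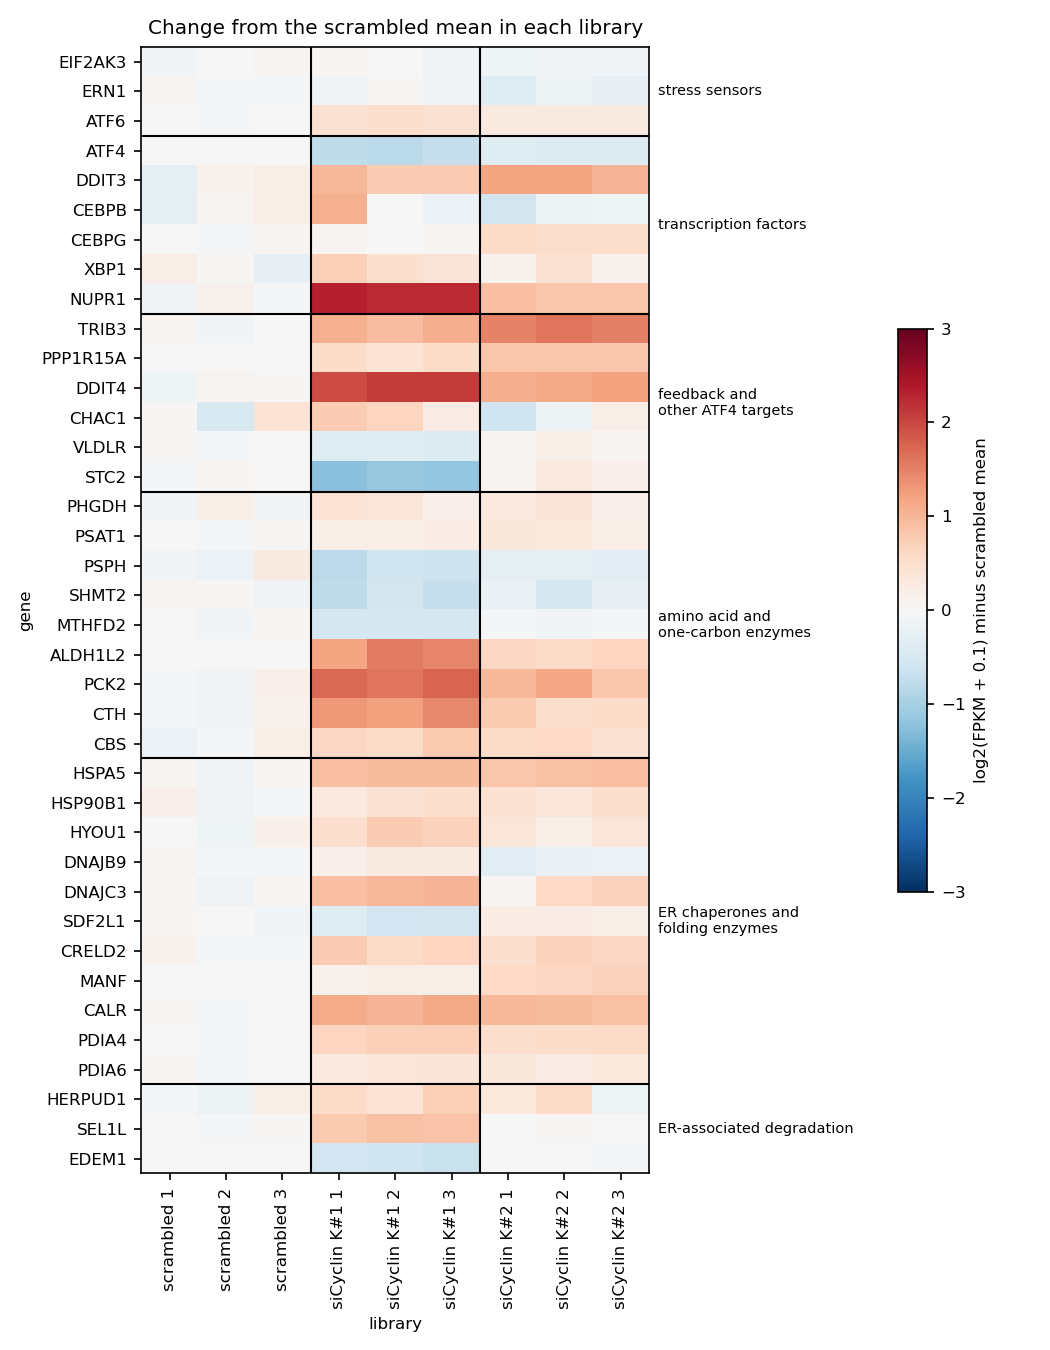
Each cell is log2(FPKM + 0.1) of 1 gene in 1 library minus the mean of the 3 scrambled libraries, with genes in rows by role and the 9 libraries in columns (red higher, blue lower, scale from -3 to 3). NUPR1 and DDIT4 are the darkest red in the siCyclin K#1 columns, ATF4 is blue in all 6 siCyclin K columns, and STC2, SEL1L and EDEM1 differ between the siRNAs.

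Among the stress sensors, only ATF6 RNA passed the test. ATF6 (ENSG00000118217, chr1:161766294-161964070, plus strand), the sensor whose cytosolic part becomes a transcription factor, was at 8.83, 8.61 and 8.93 FPKM in scrambled libraries, 12.2, 12.7 and 12.1 after siCyclin K#1 and 10.6, 10.6 and 10.7 after siCyclin K#2. All 6 siCyclin K libraries were above the scrambled libraries, and the siCyclin K#1 libraries were the highest. ATF6 rose by 0.48 ± 0.038 (adjusted p = 1.1e-05) on the log2 scale with siCyclin K#1 and by 0.27 ± 0.038 (adjusted p = 0.00055) with siCyclin K#2, and the siRNAs differed by 0.21 ± 0.038 (adjusted p = 0.0032), or by 0.14 after median-ratio rescaling.

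EIF2AK3, the gene of PERK (ENSG00000172071, chr2:88556741-88627576, minus strand), was at 7.99, 8.45 and 8.98 FPKM in scrambled libraries, 8.82, 8.40 and 7.90 after siCyclin K#1 and 7.72, 7.83 and 8.02 after siCyclin K#2. ERN1, the gene of IRE1 (ENSG00000178607, chr17:64039142-64130819, minus strand), was at 2.29, 2.08 and 2.11, 2.0, 2.23 and 1.99 and 1.66, 1.95 and 1.81 FPKM in the same order. For both genes the siCyclin K#1 libraries overlapped the scrambled ones, and the siCyclin K#2 libraries of ERN1 were the lowest. The log2 difference from scrambled was -0.02 and -0.11 for EIF2AK3 (adjusted p = 0.86 and 0.21) and -0.06 and -0.25 for ERN1 (adjusted p = 0.64 and 0.062), for siCyclin K#1 and siCyclin K#2. With siCyclin K#2, ERN1 passed as lower under 4 of 19 alternatives (adjusted p 0.024 to 0.17), both rescalings of the libraries included. Here and for the genes that follow, the alternatives counted are those that keep the adjusted p of 0.05 as the rule for a call.

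ATF4 (ENSG00000128272, chr22:39519695-39522685, plus strand), the central activator of the integrated stress response, was lower in Cyclin K depleted cells. Its FPKM was 94.3, 93.6 and 95.0 in scrambled libraries, 55.1, 53.4 and 58.0 after siCyclin K#1 and 73.9, 71.8 and 72.2 after siCyclin K#2. The groups did not overlap, and replicates lay close together. ATF4 fell to 58.9% of the scrambled mean after siCyclin K#1, which is -0.76 ± 0.034 (adjusted p = 4.1e-07) on the log2 scale, and to 77.0% with siCyclin K#2, -0.38 ± 0.034 (adjusted p = 4.4e-05). The siRNAs differed by -0.39 ± 0.034 (adjusted p = 5.7e-05).

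Of the other transcription factors of the panel, DDIT3 and NUPR1 rose with each siRNA. XBP1 rose only with siCyclin K#1, CEBPG rose only with siCyclin K#2, and CEBPB was called with neither. DDIT3 (ENSG00000175197, chr12:57516588-57521737, minus strand), which encodes the cell death factor CHOP and is a target of ATF4, was at 1.81, 2.43 and 2.62 FPKM in scrambled libraries, 4.59, 3.88 and 3.92 after siCyclin K#1 and 5.26, 5.25 and 4.71 after siCyclin K#2. All 6 siCyclin K libraries were above scrambled. DDIT3 rose by 0.84 ± 0.13 (adjusted p = 0.00085) and 1.13 ± 0.13 (adjusted p = 0.00021) with siCyclin K#1 and siCyclin K#2, and the difference between the siRNAs, -0.29, did not pass (adjusted p = 0.14). The DDIT3 row of the files also carries AC022506.1, and its exons overlap MARS on the opposite strand, so that reads of the genes cannot be told apart if counting ignored strand, which is not stated. MARS itself was at 18.4 ± 0.922 FPKM in scrambled cells, 13.0 ± 1.12 with siCyclin K#1 and 15.8 ± 1.3 with siCyclin K#2.

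NUPR1 (ENSG00000176046, chr16:28532708-28539174, minus strand), a small stress-inducible chromatin protein, had the largest log2 fold change of the panel with siCyclin K#1 at the pseudocount of 0.1. It was at 0.621, 0.758 and 0.663 FPKM in scrambled libraries, 3.79, 3.60 and 3.58 after siCyclin K#1 and 1.36, 1.27 and 1.29 after siCyclin K#2. The 3 groups were separate, with siCyclin K#1 highest. NUPR1 rose by 2.27 ± 0.093 (adjusted p = 2.6e-07) with siCyclin K#1, 5.37 times the scrambled mean, and by 0.85 ± 0.093 (adjusted p = 0.00013) with siCyclin K#2, 1.92 times. The siRNAs differed by 1.42 ± 0.093 (adjusted p = 1.1e-05). With a pseudocount of 1 these log2 values were 1.47, 0.46 and 1.01, and DDIT4, which stayed at 1.93 or more in all 19 alternatives, had the larger rise with siCyclin K#1. In the fit of both siRNAs as 1 group the rise was 1.56 ± 0.41 (adjusted p = 0.017), and this call was lost without scrambled replicate 1 (adjusted p = 0.063) or without scrambled replicate 3 (0.058), in 2 of 19 alternatives (adjusted p 1e-06 to 0.063).

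XBP1 (ENSG00000100219, chr22:28794555-28800597, minus strand), whose spliced mRNA encodes the IRE1-dependent activator of ER genes, was at 10.6, 9.44 and 7.76 FPKM in scrambled libraries, 15.1, 12.9 and 12.0 after siCyclin K#1 and 9.91, 12.5 and 10.1 after siCyclin K#2. The siCyclin K#1 libraries lay above all scrambled ones, whereas those with siCyclin K#2 overlapped them. XBP1 rose by 0.53 ± 0.14 (adjusted p = 0.012) with siCyclin K#1, and the value with siCyclin K#2 was 0.23 ± 0.14 (adjusted p = 0.24). The difference between the siRNAs was not called (adjusted p = 0.15).

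CEBPG, a dimer partner of ATF4, was at 18.0 ± 0.685 FPKM in scrambled cells, 18.6 ± 0.715 with siCyclin K#1 and 26.1 ± 0.380 with siCyclin K#2. It rose with siCyclin K#2 (0.54 ± 0.043 (adjusted p = 2e-05)) and did not pass with siCyclin K#1 (adjusted p = 0.39), and the direct difference was -0.49 ± 0.043 (adjusted p = 5.4e-05). CEBPB, another C/EBP factor, was not called with either siRNA. Its siCyclin K#1 replicate 1 stood apart at 42.5 FPKM, beside 20.5 and 18.1 in the other replicates and 16.7, 21.4 and 23.4 in scrambled libraries. The log2 difference with siCyclin K#1 was 0.30 ± 0.3 (adjusted p = 0.46), and -0.08 (adjusted p = 0.77) without that library.

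**Figure D3:**
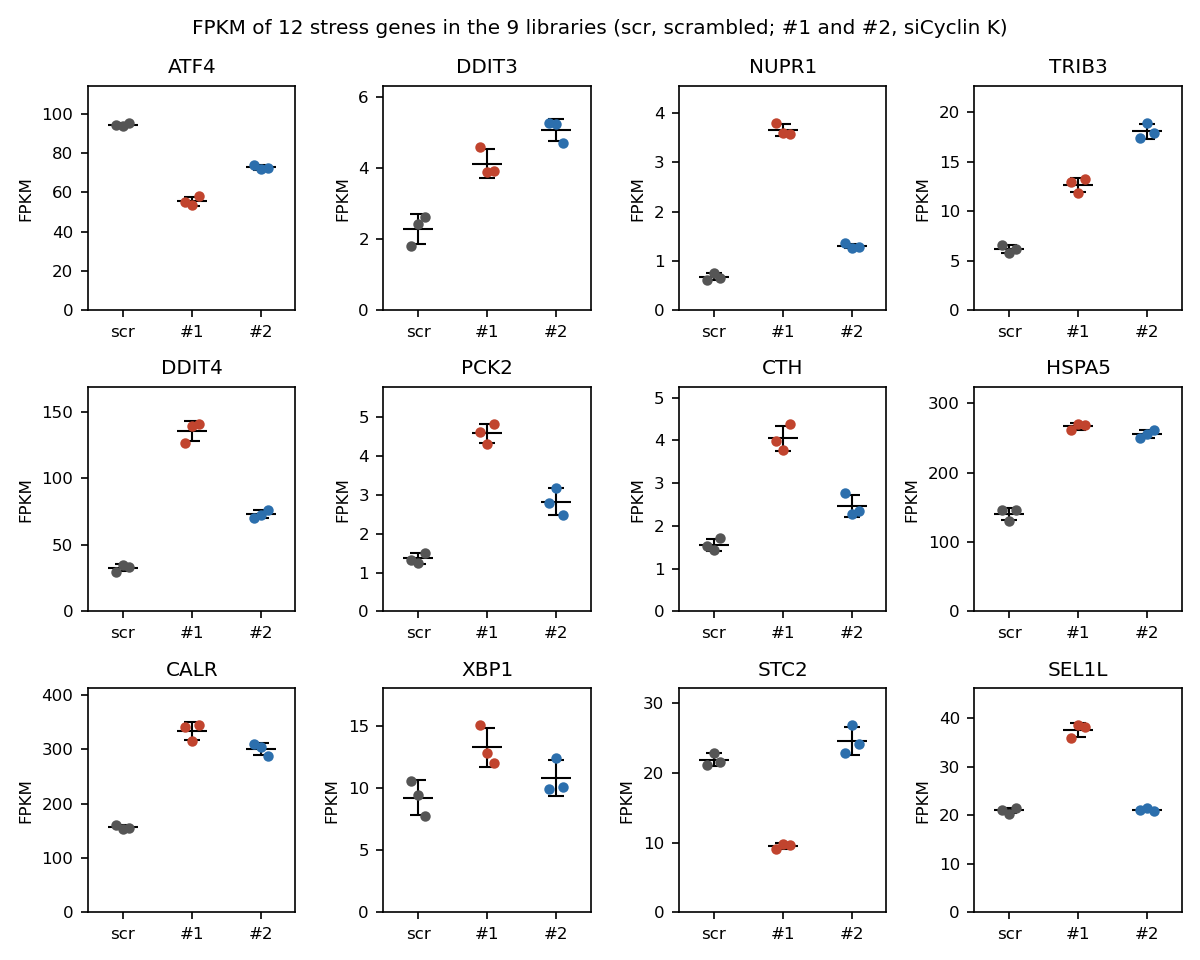
FPKM of 12 genes in the 9 libraries, with an axis from 0 for each gene. Points are libraries (scr, scrambled; #1 and #2, siCyclin K#1 and siCyclin K#2) and bars are the mean ± SD of 3. ATF4 falls from 94.3 to 55.5 and 72.6, while the means of DDIT3, NUPR1, TRIB3, DDIT4, PCK2, CTH, HSPA5 and CALR are higher with each siRNA.

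Of 6 feedback genes and other ATF4 targets, 3 rose and 2 fell with siCyclin K#1 and 3 rose with siCyclin K#2. TRIB3 (ENSG00000101255, chr20:362835-397559, plus strand), a pseudokinase that binds and inhibits ATF4, was at 6.57, 5.81 and 6.20 FPKM in scrambled libraries, 13.0, 11.9 and 13.2 after siCyclin K#1 and 17.4, 18.9 and 17.9 after siCyclin K#2. Every siCyclin K library was far above scrambled, and siCyclin K#2 gave the higher values. TRIB3 rose by 1.02 ± 0.062 (adjusted p = 2.4e-06) and 1.53 ± 0.062 (adjusted p = 5.9e-07), with a direct difference of -0.51 ± 0.062 (adjusted p = 0.00038). PPP1R15A (ENSG00000087074, chr19:48872392-48876057, plus strand), the stress-induced GADD34 subunit that directs dephosphorylation of eIF2, followed the same order. Its FPKM was 9.89, 9.77 and 9.60 in scrambled libraries, 14.2, 13.1 and 14.4 after siCyclin K#1 and 17.3, 17.6 and 17.1 after siCyclin K#2. No groups overlapped, and PPP1R15A rose by 0.51 ± 0.045 (adjusted p = 2.4e-05) and 0.82 ± 0.045 (adjusted p = 2.5e-06), with a direct difference of -0.32 ± 0.045 (adjusted p = 0.00088).

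DDIT4 (ENSG00000168209, chr10:72273920-72276036, plus strand), the mTORC1 inhibitor REDD1, had the order reversed. It was at 29.9, 34.8 and 33.6 FPKM in scrambled libraries, 127, 139 and 140.5 after siCyclin K#1 and 70.2, 72.3 and 76.1 after siCyclin K#2, and each group was separate. DDIT4 rose by 2.05 ± 0.064 (adjusted p = 6.5e-08), 4.14 times the scrambled mean, and by 1.15 ± 0.064 (adjusted p = 2.8e-06), 2.23 times. The direct difference was 0.89 ± 0.064 (adjusted p = 1.8e-05). An antisense transcript, DDIT4-AS1, overlaps its exons and was listed at 0 in 8 of the 9 libraries.

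STC2 and VLDLR, a secreted glycoprotein and a lipoprotein receptor that ATF4 is known to induce, fell with siCyclin K#1 and were not called with siCyclin K#2. STC2 was at 21.9 ± 0.920 FPKM in scrambled cells, 9.54 ± 0.402 with siCyclin K#1 and 24.6 ± 2.01 with siCyclin K#2, and VLDLR at 9.28 ± 0.197, 7.06 ± 0.130 and 9.90 ± 0.492. STC2 fell by 1.19 ± 0.064 (adjusted p = 1.2e-06) with siCyclin K#1, whereas its level with siCyclin K#2 was above scrambled by 0.17 ± 0.064 (adjusted p = 0.076), and the siRNAs differed by -1.36 ± 0.064 (adjusted p = 2e-06), the largest direct fall of the panel. For VLDLR the direct difference was -0.48 ± 0.048 (adjusted p = 0.00012). The STC2 value with siCyclin K#2 passed as higher under 2 of 19 alternatives (adjusted p 0.022 to 0.21). CHAC1, a glutathione-degrading enzyme and sensitive ATF4 target, had low values, with 24 counted units in its lowest library. It was at 0.618 ± 0.206 FPKM in scrambled cells, 0.932 ± 0.187 with siCyclin K#1 and 0.530 ± 0.169 with siCyclin K#2. The log2 differences from scrambled, 0.55 ± 0.28 and -0.18 ± 0.28, did not pass in limma (adjusted p = 0.15 and 0.67).

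The 9 measured enzymes of amino acid and one-carbon metabolism were divided. With siCyclin K#1, 6 rose (66.7%, against 26.8% of all tested genes) and 3 fell (33.3%, against 18.1%). With siCyclin K#2, 5 rose (55.6%, against 19.8%), 1 fell (11.1%, against 15.2%) and 3 did not pass. PCK2 (ENSG00000100889, chr14:24094053-24110598, plus strand), the mitochondrial PEP carboxykinase, was at 1.31, 1.26 and 1.52 FPKM in scrambled libraries, 4.63, 4.32 and 4.82 after siCyclin K#1 and 2.79, 3.18 and 2.50 after siCyclin K#2. The groups were separate, siCyclin K#1 highest. PCK2 rose by 1.68 ± 0.11 (adjusted p = 3.1e-06) and 0.99 ± 0.11 (adjusted p = 0.00012), and the siRNAs differed by 0.69 ± 0.11 (adjusted p = 0.0014). CTH (ENSG00000116761, chr1:70411218-70439851, plus strand), which makes cysteine from cystathionine, was at 1.52, 1.44 and 1.71 FPKM in scrambled libraries, 3.98, 3.78 and 4.37 after siCyclin K#1 and 2.77, 2.27 and 2.35 after siCyclin K#2, in the same order as PCK2. It rose by 1.32 ± 0.1 (adjusted p = 1.1e-05) and 0.63 ± 0.1 (adjusted p = 0.0015), and the siRNAs differed by 0.70 ± 0.1 (adjusted p = 0.0011). ALDH1L2 (ENSG00000136010, chr12:105019784-105084577, minus strand), a mitochondrial folate enzyme, was at 0.766, 0.794 and 0.779 FPKM in scrambled libraries, 1.89, 2.50 and 2.32 after siCyclin K#1 and 1.26, 1.19 and 1.27 after siCyclin K#2. Its groups did not overlap. It rose by 1.40 ± 0.11 (adjusted p = 1.4e-05) and 0.61 ± 0.11 (adjusted p = 0.003), with a direct difference of 0.79 ± 0.11 (adjusted p = 0.00095). With a pseudocount of 1 the ALDH1L2 values were 0.86, 0.33 and 0.52.

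CBS, the enzyme before CTH in transsulfuration, was at 1.08 ± 0.153 FPKM in scrambled cells, 1.75 ± 0.146 with siCyclin K#1 and 1.61 ± 0.0972 with siCyclin K#2, and rose by 0.65 ± 0.12 (adjusted p = 0.0019) and 0.54 ± 0.12 (adjusted p = 0.0072), or by 0.40 and 0.33 with a pseudocount of 1. Its near-identical copy CBSL is listed at 1.26 ± 0.150, 2.17 ± 0.0785 and 1.88 ± 0.169 FPKM, so the share of reads given to each is uncertain. Of the serine synthesis enzymes, PSAT1 rose with each siRNA, by 0.20 ± 0.04 (adjusted p = 0.0033) and 0.28 ± 0.04 (adjusted p = 0.00061), from 51.4 ± 1.34 FPKM to 59.0 ± 0.986 and 62.6 ± 3.01. Its call with siCyclin K#1 was lost after median-ratio rescaling, in 1 of 19 alternatives (adjusted p 0.00036 to 0.16). PHGDH, the first enzyme of that pathway, was at 3.36 ± 0.381, 4.18 ± 0.413 and 4.07 ± 0.341 FPKM in scrambled, siCyclin K#1 and siCyclin K#2 cells. Its call with siCyclin K#1 (0.31 ± 0.11 (adjusted p = 0.044)) was lost under 10 of 19 alternatives (adjusted p 0.017 to 0.27), and the value with siCyclin K#2 was 0.27 ± 0.11 (adjusted p = 0.085), passing as higher under 2 of 19 alternatives (adjusted p 0.034 to 0.24). PSPH, the last enzyme, went the other way, at 8.69 ± 1.53, 5.39 ± 0.377 and 7.03 ± 0.132 FPKM. It fell by 0.67 ± 0.11 (adjusted p = 0.0012) with siCyclin K#1, and the value with siCyclin K#2 was -0.29 ± 0.11 (adjusted p = 0.08), passing as lower under 3 of 19 alternatives (adjusted p 0.034 to 0.17), both rescalings included.

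The mitochondrial one-carbon enzymes SHMT2 and MTHFD2 were lower with siCyclin K#1. SHMT2 was at 26.1 ± 1.79, 16.4 ± 1.29 and 21.1 ± 2.0 FPKM and fell by 0.66 ± 0.086 (adjusted p = 0.00025) with siCyclin K#1. It fell by 0.31 ± 0.086 (adjusted p = 0.022) with siCyclin K#2, a call lost under 4 of 19 alternatives (adjusted p 0.011 to 0.075). MTHFD2 was at 60.2 ± 3.07, 42.0 ± 0.420 and 57.3 ± 0.995 FPKM and fell by 0.52 ± 0.039 (adjusted p = 8.9e-06) with siCyclin K#1, while the value with siCyclin K#2 was -0.07 ± 0.039 (adjusted p = 0.21). Directly compared, MTHFD2 differed by -0.45 ± 0.039 (adjusted p = 5.7e-05) between the siRNAs. Exons of MTHFD2 overlap SLC4A5 on the opposite strand, whose row in the files is shared with DCTN1.

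**Figure D4:**
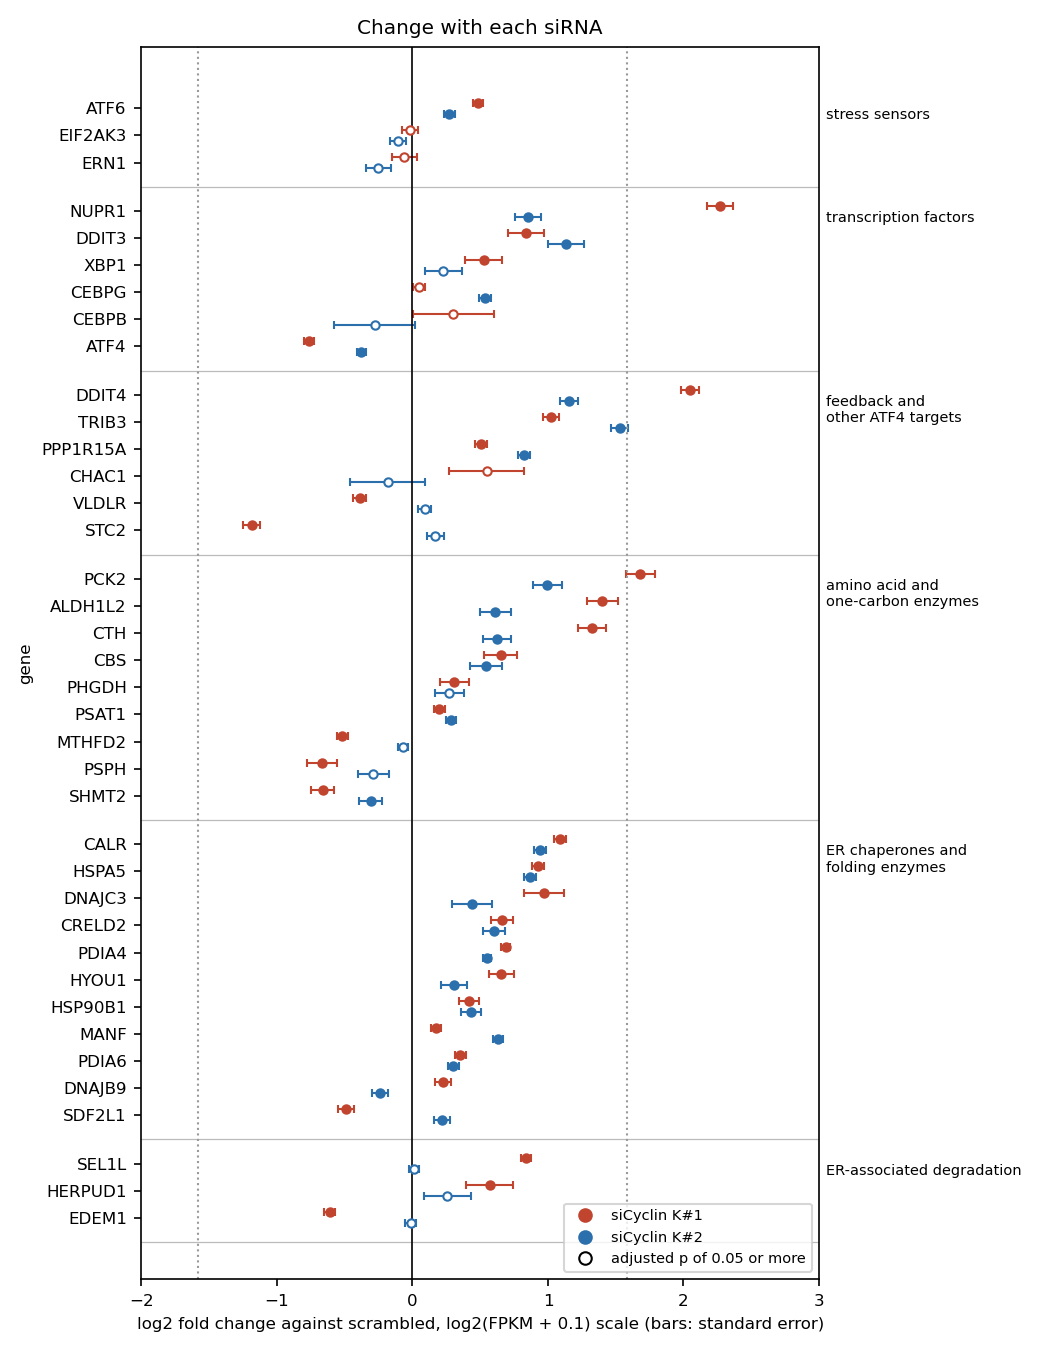
Log2 fold change of each gene against scrambled with siCyclin K#1 (red) and siCyclin K#2 (blue), by role and sorted within a role by the fit of both siRNAs. Bars are standard errors, open points have an adjusted p of 0.05 or more, and dotted lines mark a fold change of 3. All 11 chaperone points with siCyclin K#1 and with siCyclin K#2 are filled, and SDF2L1 and DNAJB9 lie on opposite sides of 0 with the siRNAs.

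ER chaperones and folding enzymes were mostly higher. Of 11 genes, 10 rose (90.9%, against 26.8% of all tested genes) and 1 fell (9.09%, against 18.1%) with siCyclin K#1. With siCyclin K#2, likewise 10 rose (90.9%, against 19.8%) and 1 fell (9.09%, against 15.2%). The median log2 fold changes were 0.65 and 0.44. The highest FPKM of the panel in scrambled cells belonged to HSP90B1, CALR, PDIA6, HSPA5 and PDIA4, at 198, 156, 151, 140.5 and 101, ahead of ATF4, and the other 6 lay between 3.65 (CRELD2) and 28.5 (SDF2L1). HSPA5 (ENSG00000044574, chr9:125234853-125241330, minus strand), the ER Hsp70 BiP that holds the sensors inactive, was at 146, 130.5 and 146 FPKM in scrambled libraries, 261, 269 and 269 after siCyclin K#1 and 250.0, 256 and 261 after siCyclin K#2. All 6 siCyclin K libraries were well above scrambled. HSPA5 rose by 0.92 ± 0.045 (adjusted p = 6.4e-07) and 0.87 ± 0.045 (adjusted p = 1.8e-06), and the difference between the siRNAs was 0.06 ± 0.045 (adjusted p = 0.39). CALR (ENSG00000179218, chr19:12938578-12944489, plus strand), the lectin chaperone calreticulin, was at 161, 153 and 155 FPKM in scrambled libraries, 341, 315 and 344 after siCyclin K#1 and 309, 304 and 288 after siCyclin K#2. It again showed no overlap with scrambled. CALR rose by 1.09 ± 0.043 (adjusted p = 2e-07) and 0.94 ± 0.043 (adjusted p = 9.1e-07). The direct difference of 0.15 ± 0.043 (adjusted p = 0.028) was lost under 7 of 18 alternatives (adjusted p 0.00031 to 0.27).

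HSP90B1, the ER Hsp90 GRP94, rose by 0.42 ± 0.072 (adjusted p = 0.0014) and 0.43 ± 0.072 (adjusted p = 0.0016), from 198 ± 17.9 FPKM to 265 ± 19.2 and 267 ± 9.76. The disulfide isomerases PDIA4 and PDIA6 rose too. PDIA4 went from 101 ± 2.20 FPKM to 162 ± 4.72 and 148 ± 2.69, and PDIA6 from 151 ± 4.94 to 192 ± 7.63 and 186 ± 5.77, with log2 fold changes of 0.69 and 0.55 for PDIA4 and 0.35 and 0.30 for PDIA6 (adjusted p = 4.6e-07, 3.1e-06, 0.00011 and 0.00043), and PDIA6 was 0.23 with siCyclin K#1 after median-ratio rescaling. CRELD2, an ER stress-inducible folding factor, rose from 3.65 ± 0.230 FPKM to 5.82 ± 0.416 and 5.59 ± 0.427 (0.66 ± 0.081 (adjusted p = 0.00018) and 0.60 ± 0.081 (adjusted p = 0.00048)). MANF, a secreted ER stress factor, was at 16.1 ± 0.172 FPKM in scrambled cells, 18.2 ± 0.407 with siCyclin K#1 and 25.1 ± 0.853 with siCyclin K#2. Its rise was small with siCyclin K#1 (0.17 ± 0.037 (adjusted p = 0.0048), lost after median-ratio rescaling, in 1 of 19 alternatives (adjusted p 0.003 to 0.32)) and larger with siCyclin K#2 (0.63 ± 0.037 (adjusted p = 3.7e-06)), with a direct difference of -0.46 ± 0.037 (adjusted p = 3.5e-05). HYOU1, the GRP170 nucleotide exchange factor of BiP, was at 18.0 ± 1.78, 28.3 ± 2.74 and 22.2 ± 1.48 FPKM. It rose by 0.65 ± 0.092 (adjusted p = 0.00042) with siCyclin K#1 and by 0.31 ± 0.092 (adjusted p = 0.031) with siCyclin K#2, and the latter call was lost under 7 of 19 alternatives (adjusted p 0.016 to 0.1).

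DNAJC3 (ENSG00000102580, chr13:95677139-95794989, plus strand), a BiP cochaperone and PERK inhibitor, was at 6.76, 6.16 and 6.85 FPKM in scrambled libraries, 12.4, 13.2 and 13.4 after siCyclin K#1 and 6.81, 9.94 and 10.7 after siCyclin K#2. siCyclin K#2 replicate 1 lay within the scrambled range and the other 5 siCyclin K libraries above it. DNAJC3 rose by 0.97 ± 0.15 (adjusted p = 0.00063) with siCyclin K#1 and by 0.44 ± 0.15 (adjusted p = 0.046) with siCyclin K#2. The second call was lost under 13 of 19 alternatives (adjusted p 0.0003 to 0.14), and without siCyclin K#2 replicate 1 the value was 0.64 (adjusted p = 0.0003).

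DNAJB9 and SDF2L1 moved in opposite directions with the siRNAs. DNAJB9 (ENSG00000128590, chr7:108569568-108574850, plus strand), the BiP cochaperone ERdj4 that represses IRE1, was at 9.60, 8.71 and 8.73 FPKM in scrambled libraries, 10.0, 10.9 and 10.8 after siCyclin K#1 and 7.25, 7.66 and 7.90 after siCyclin K#2. The siCyclin K#1 libraries were all above scrambled and the siCyclin K#2 libraries all below. It rose by 0.23 ± 0.059 (adjusted p = 0.013) and fell by 0.24 ± 0.059 (adjusted p = 0.012), with a direct difference of 0.47 ± 0.059 (adjusted p = 0.00044). The rise with siCyclin K#1 was lost after median-ratio rescaling and after quantile normalization, in 2 of 19 alternatives (adjusted p 0.0076 to 0.2). SDF2L1 (ENSG00000128228, chr22:21642261-21644298, plus strand), a partner of ER Hsp40 proteins, was at 29.8, 28.8 and 27.0 FPKM in scrambled libraries, 22.0, 19.2 and 19.6 after siCyclin K#1 and 33.3, 33.7 and 32.4 after siCyclin K#2. Here siCyclin K#1 was below scrambled and siCyclin K#2 above. It fell by 0.49 ± 0.058 (adjusted p = 0.00014) and rose by 0.22 ± 0.058 (adjusted p = 0.019), the rise being lost under 5 of 19 alternatives (adjusted p 0.0055 to 0.065). The direct difference was -0.71 ± 0.058 (adjusted p = 3.8e-05).

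ER-associated degradation, which extracts misfolded protein from the ER for the proteasome, was represented by 3 genes. With siCyclin K#1, 2 rose (66.7%, against 26.8% of all tested genes) and 1 fell (33.3%, against 18.1%). With siCyclin K#2, 0 of 3 passed in limma, where 19.8% of all tested genes were higher and 15.2% lower. At an unadjusted p under 0.05, 0 of 3 passed with siCyclin K#2, against 23.6% higher and 19.4% lower of all tested genes. SEL1L (ENSG00000071537, chr14:81471549-81533861, minus strand), the adaptor of the HRD1 ubiquitin ligase, was at 21.2, 20.4 and 21.4 FPKM in scrambled libraries, 36.0, 38.5 and 38.2 after siCyclin K#1 and 21.1, 21.5 and 20.9 after siCyclin K#2. EDEM1 (ENSG00000134109, chr3:5187646-5219957, plus strand), a mannosidase-like protein that hands glycoproteins to degradation, was at 13.7, 13.9 and 13.8, 9.30, 9.11 and 8.64 and 13.8, 13.8 and 13.5 FPKM. siCyclin K#1 was above all other libraries for SEL1L and below them for EDEM1, whereas siCyclin K#2 overlapped scrambled for both. SEL1L rose by 0.84 ± 0.038 (adjusted p = 4.6e-07) and EDEM1 fell by 0.61 ± 0.04 (adjusted p = 3.6e-06) with siCyclin K#1, and the siRNAs differed by 0.82 ± 0.038 (adjusted p = 1.7e-06) for SEL1L and -0.60 ± 0.04 (adjusted p = 1.2e-05) for EDEM1. HERPUD1 (ENSG00000051108, chr16:56932048-56944863, plus strand), a stress-induced scaffold of the same ligase, was at 3.97, 3.60 and 4.63 FPKM in scrambled libraries, 6.09, 5.39 and 6.73 after siCyclin K#1 and 5.09, 6.04 and 3.71 after siCyclin K#2. Its replicates spread widely. HERPUD1 rose by 0.57 ± 0.17 (adjusted p = 0.026) with siCyclin K#1, a call lost under 7 of 19 alternatives (adjusted p 0.0065 to 0.086), and was at 0.26 ± 0.17 (adjusted p = 0.3) with siCyclin K#2. Without siCyclin K#2 replicate 3 that value was 0.45 (adjusted p = 0.042).

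Other genes of the same pathways were read from 8 lists, with values for siCyclin K#1 and siCyclin K#2 in that order. The list of other ER folding genes held mostly genes that rose. Of 27 genes tested, 19 rose (70.4%, against 26.8% of all tested genes) and 4 fell (14.8%, against 18.1%) with siCyclin K#1. With siCyclin K#2, 15 rose (55.6%, against 19.8%) and 2 fell (7.41%, against 15.2%). ERO1A, the oxidase that feeds disulfides to the isomerases, rose from 14.9 ± 0.640 FPKM to 34.1 ± 0.478 and 37.5 ± 3.80, log2 fold changes of 1.19 and 1.32 (adjusted p = 1.5e-06 and 1.7e-06). CRELD1 rose from 1.71 ± 0.0857 FPKM to 3.16 ± 0.248 and 3.22 ± 0.118, log2 fold changes of 0.84 and 0.87 (adjusted p = 3.4e-05 and 4.5e-05), and FKBP14, a collagen prolyl isomerase, rose from 7.18 ± 0.651 FPKM to 14.3 ± 0.718 and 11.1 ± 0.341, log2 fold changes of 0.99 and 0.63 (adjusted p = 5.3e-06 and 0.00014). Of 21 genes for signal recognition, translocation and signal peptide removal, 3 rose (14.3%, against 26.8%) and 8 fell (38.1%, against 18.1%) with siCyclin K#1. With siCyclin K#2, 3 rose (14.3%, against 19.8%) and 7 fell (33.3%, against 15.2%). SSR4, a subunit of the translocon-associated complex, fell from 14.3 ± 0.823 FPKM to 8.33 ± 0.334 and 7.23 ± 0.239, log2 fold changes of -0.77 and -0.97 (adjusted p = 7.1e-06 and 3.5e-06). SERP1 fell from 28.4 ± 0.677 FPKM to 15.2 ± 1.42 and 19.2 ± 0.664, log2 fold changes of -0.90 and -0.56 (adjusted p = 6.1e-06 and 0.00018), and SRP68, a subunit of the signal recognition particle, rose from 13.0 ± 0.147 FPKM to 17.8 ± 0.909 and 20.3 ± 1.65, log2 fold changes of 0.45 and 0.64 (adjusted p = 0.00036 and 6.4e-05). Of 24 other genes of ER-associated degradation, 8 rose and 7 fell with siCyclin K#1, against 26.8% and 18.1% of all tested genes. With siCyclin K#2, 6 of the 24 rose and 4 fell, against 19.8% and 15.2% of all tested genes. FAF2, which recruits the extraction ATPase, fell from 21.1 ± 0.426 FPKM to 7.14 ± 0.478 and 14.8 ± 0.309, log2 fold changes of -1.55 and -0.50 (adjusted p = 8.9e-08 and 9.8e-05). RNF5, an ER ubiquitin ligase, fell from 29.9 ± 1.09 FPKM to 18.2 ± 1.65 and 16.8 ± 1.36, log2 fold changes of -0.72 and -0.83 (adjusted p = 7.8e-05 and 5.1e-05), and ERLIN2 rose from 1.81 ± 0.122 FPKM to 4.95 ± 0.190 and 3.72 ± 0.0297, log2 fold changes of 1.40 and 1.00 (adjusted p = 6.4e-07 and 8.1e-06).

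Genes for the other eIF2 kinases, for eIF2 and its exchange factor and for its phosphatases were divided. Of 17 tested, 6 rose (35.3%, against 26.8% of all tested genes) and 10 fell (58.8%, against 18.1%) with siCyclin K#1. With siCyclin K#2, 4 rose (23.5%, against 19.8%) and 7 fell (41.2%, against 15.2%). PPP1R15B, the constitutive partner of PPP1R15A in eIF2 dephosphorylation, fell from 33.9 ± 0.421 FPKM to 19.0 ± 0.10 and 20.4 ± 0.133, log2 fold changes of -0.83 and -0.73 (adjusted p = 9.7e-08 and 4.4e-07), so that the paired regulatory subunits moved in opposite directions. EIF2S3, the gamma subunit of eIF2, fell from 63.1 ± 5.72 FPKM to 42.7 ± 0.971 and 47.6 ± 3.52, log2 fold changes of -0.56 and -0.40 (adjusted p = 0.00021 and 0.0021). PPP1CB, a catalytic phosphatase subunit on a row shared with SPDYA, rose from 30.0 ± 0.0407 FPKM to 49.2 ± 0.461 and 48.8 ± 2.64, log2 fold changes of 0.71 and 0.70 (adjusted p = 1.4e-06 and 3e-06). Named after their values were seen, the kinase gene EIF2AK2 fell with each siRNA, by 0.48 ± 0.055 (adjusted p = 0.00011) and 0.20 ± 0.055 (adjusted p = 0.019), while EIF2AK1 and EIF2AK4 rose with siCyclin K#1 (log2 fold changes of 0.15 and 0.19, adjusted p = 0.02 and 0.016) and were not called with siCyclin K#2. The exchange factor genes were split: EIF2B2 and EIF2B3 rose with each siRNA, whereas EIF2B4 fell with each. EIF2B5 fell only with siCyclin K#1, and EIF2B1 was called with neither. Of 27 other genes linked to ATF4, 11 rose (40.7%, against 26.8%) and 10 fell (37.0%, against 18.1%) with siCyclin K#1. With siCyclin K#2, 16 rose (59.3%, against 19.8%) and 3 fell (11.1%, against 15.2%). BBC3, the cell death gene PUMA, rose from 1.38 ± 0.252 FPKM to 7.95 ± 1.52 and 2.92 ± 0.122, log2 fold changes of 2.44 and 1.04 (adjusted p = 3.2e-06 and 0.00088). SESN2, an mTORC1 inhibitor, rose from 3.12 ± 0.210 FPKM to 14.2 ± 0.307 and 4.62 ± 0.455, log2 fold changes of 2.15 and 0.55 (adjusted p = 1.4e-07 and 0.0007), and the stress factor ATF3 rose from 0.810 ± 0.143 FPKM to 2.94 ± 0.130 and 1.72 ± 0.839, log2 fold changes of 1.75 and 0.91 (adjusted p = 0.00086 and 0.033). BBC3 and SESN2 are known targets of p53 as well. Chosen after their values were seen, SLC7A11, the cystine transporter subunit, fell from 55.1 ± 2.54 FPKM to 19.3 ± 0.408 and 42.9 ± 1.21, log2 fold changes of -1.5 and -0.36 (adjusted p = 4e-08 and 0.00019), and the secreted factor GDF15 went opposite ways, from 32.4 ± 1.26 FPKM to 21.3 ± 0.853 and 55.9 ± 6.06, log2 fold changes of -0.60 and 0.78 (adjusted p = 0.00019 and 6.3e-05). The sensor pathway list was even. Of its 14 genes, 5 rose and 5 fell with siCyclin K#1 (35.7% each, against 26.8% and 18.1% of all tested genes). With siCyclin K#2, 3 rose and 3 fell (21.4% each, against 19.8% and 15.2%). CREB3L2, a membrane-bound factor related to ATF6, rose from 6.61 ± 0.0707 FPKM to 15.7 ± 0.344 and 16.9 ± 0.442, log2 fold changes of 1.24 and 1.34 (adjusted p = 6.2e-08 and 1.3e-07). RTCB, the ligase that joins spliced XBP1 mRNA, fell from 41.4 ± 0.990 FPKM to 34.9 ± 1.64 and 25.1 ± 1.65, log2 fold changes of -0.25 and -0.72 (adjusted p = 0.0055 and 1.6e-05), and MBTPS2, a protease that cleaves ATF6, fell on a row shared with YY2 and RF00019 from 10.9 ± 0.365 FPKM to 7.85 ± 0.0829 and 8.06 ± 0.0371, log2 fold changes of -0.47 and -0.43 (adjusted p = 2.1e-05 and 5.8e-05).

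Chaperones of other compartments were tested alongside. Of 17 cytosolic heat shock genes, 6 rose (35.3%, against 26.8% of all tested genes) and 7 fell (41.2%, against 18.1%) with siCyclin K#1. With siCyclin K#2, 7 rose (41.2%, against 19.8%) and 0 fell (against 15.2%). At an unadjusted p under 0.05 in limma the siCyclin K#2 counts were 10 and 0, against 23.6% and 19.4% of all tested genes. AHSA1, an activator of Hsp90, rose from 19.7 ± 0.959 FPKM to 38.4 ± 1.26 and 45.0 ± 0.625, log2 fold changes of 0.96 and 1.19 (adjusted p = 4.2e-07 and 3.2e-07). DNAJB1 rose from 28.5 ± 3.57 FPKM to 38.2 ± 4.68 and 51.0 ± 1.08, log2 fold changes of 0.42 and 0.85 (adjusted p = 0.0097 and 0.00027), and HSPB8 rose from 6.80 ± 0.101 FPKM to 11.2 ± 0.355 and 9.30 ± 0.170, log2 fold changes of 0.71 and 0.45 (adjusted p = 1.9e-06 and 5.4e-05). Of 13 mitochondrial chaperones and proteases, 4 rose (30.8%, against 26.8%) and 6 fell (46.2%, against 18.1%) with siCyclin K#1. With siCyclin K#2, 4 rose (30.8%, against 19.8%) and 4 fell (30.8%, against 15.2%). The matrix protease LONP1 rose from 6.62 ± 0.880 FPKM to 17.0 ± 0.379 and 22.9 ± 0.682, log2 fold changes of 1.35 and 1.78 (adjusted p = 2.3e-06 and 9.9e-07). AFG3L2 rose from 7.11 ± 0.124 FPKM to 13.1 ± 0.689 and 14.9 ± 0.599, log2 fold changes of 0.87 and 1.06 (adjusted p = 1.9e-06 and 1.3e-06), and HTRA2 fell from 7.32 ± 0.150 FPKM to 4.42 ± 0.296 and 4.46 ± 0.518, log2 fold changes of -0.72 and -0.71 (adjusted p = 0.00016 and 0.00027). No test compared these lists with each other or with the panel.

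**Figure D5:**
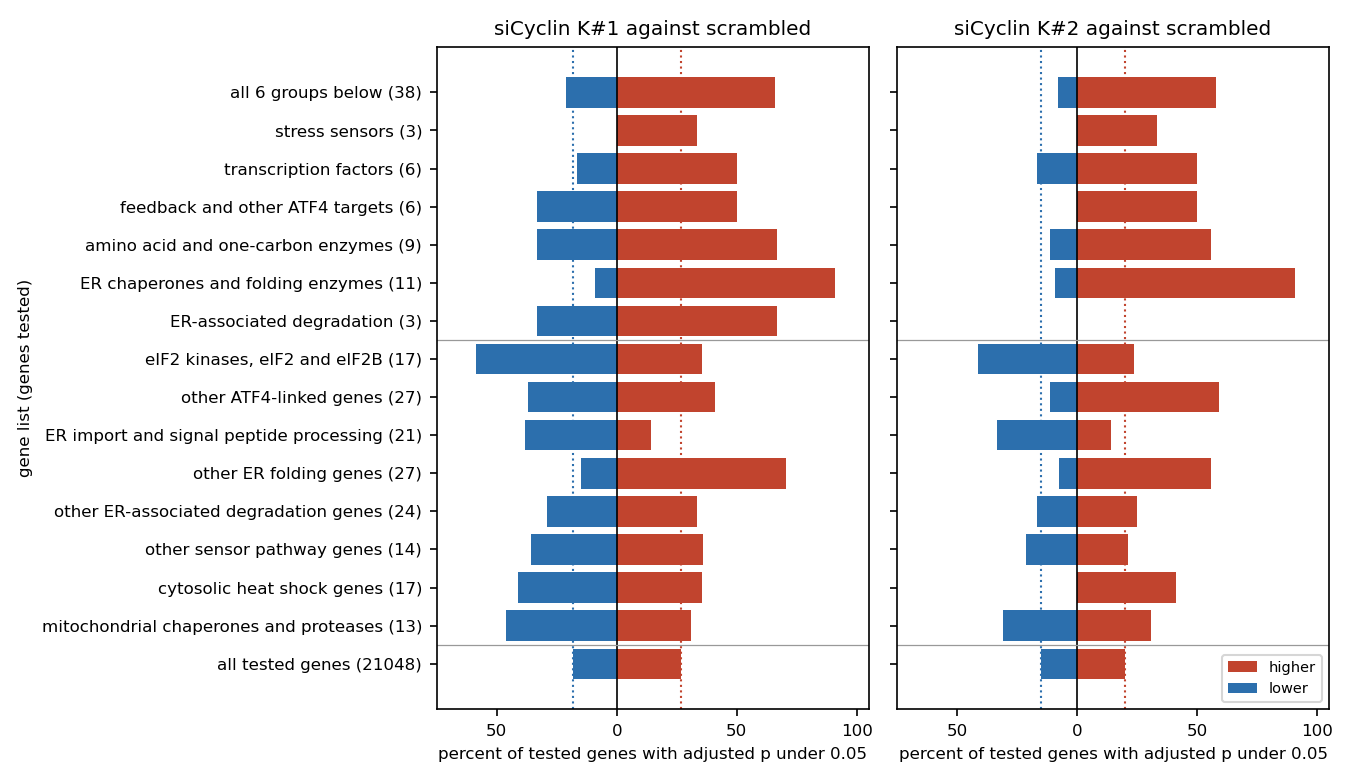
Share of tested genes called higher (red, to the right) and lower (blue, to the left) at an adjusted p under 0.05, in percent, for the panel, its 6 roles, the 8 other lists and all tested genes, with the number of genes tested in parentheses. Dotted lines carry the shares of all tested genes up the plot. The ER chaperones reach 90.9% higher with each siRNA, and the eIF2 list has 58.8% lower with siCyclin K#1.

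CDK12 and Cyclin K are known for effects that depend on gene length, so the span of each gene was set against its change. Across the 38 genes, Spearman's rho of log2 span with the log2 fold change was 0.011 for siCyclin K#1 and -0.071 for siCyclin K#2, against 0.137 and 0.180 across all 21048 tested genes. A positive value means that longer genes tended to have higher log2 fold changes. These correlations are descriptions across genes, which are not independent, of 9 shared libraries. Their relation to the known effects of gene length was not tested. The median span was 15668 bases in the panel and 13400 over all tested genes.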

How the data were processed

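The authors extracted total RNA from A549 cells with TRIzol and sequenced its libraries from both ends with a HiSeq X instrument. The deposited values are FPKM per feature and library, made by the authors with StringTie 1.3.3b. The aligner, the annotation release and the use of strand are not given in the sources used here. Gene coordinates in the files are GRCh38.

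Where a reference gene had several rows, as 47 genes did, their values were added, and 25125 StringTie loci without a reference gene were left out. Low values of single genes were whole multiples of 1 counted unit (a read or a read pair, which is not stated) at the GENCODE 29 exon length for 88.86% to 89.81% of nonzero values of up to 1000 units, within 0.05 of a unit, which gave the depth per library. Reads were not recovered for StringTie loci (DDIT3, TRIB3, PSPH and HSP90B1 in the panel), so that no count test was run. Genes that reached 0.1 FPKM in 3 or more libraries entered limma 3.58.1 (trended eBayes, R 4.3.3) as log2(FPKM + 0.1), with Benjamini-Hochberg adjustment over all 21048 genes. Each siRNA was compared with scrambled and with the other siRNA in 1 fit of 3 groups, and both together in a fit of 2 groups. The methods state a fold change over 3 and p under 0.01, which was used beside an adjusted p of 0.05. Single genes had an exact permutation test in scipy 1.17.1.

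The genes, lists and tests were chosen with earlier results of these data known. In each role the 3 largest changes over both siRNAs, any gene past the thresholds of the methods, any gene that moved in opposite directions, and ATF4, DDIT3, HSPA5 and XBP1 are given by library, and the others by group means. From each other list up to 3 genes are named, those with the largest change in the fit of both siRNAs among genes called there whose FPKM averaged 1 or more and whose 3 scrambled libraries all lay beyond the 6 others, so that larger changes with 1 siRNA or in lower genes are passed over. Others named are said to be chosen after their values were seen. Alternatives were other pseudocounts, filters, normalizations and variance priors, a replicate block, other groupings of the fit, the highest row per gene, a fold change over 2, and leaving out each of the 9 libraries.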

Additional observations from a re-analysis of the deposited data

Results flagged for a closer look

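CEBPB in siCyclin K#1 replicate 1 was at 42.5 FPKM, far from the other 5 siCyclin K libraries. The gap to the nearest of them was 0.766 of the range of the 6 libraries, above the critical value of Dixon's test. The 38 genes were searched in this way, where chance flags about 1 in 20, or 1.9 genes, if the 6 libraries are 1 uniform sample. They come from 2 siRNAs, which differed for 24 genes at an adjusted p under 0.05 in limma. For those genes the expectation does not hold, and a library that stands apart within its own group can be missed. The cause was not tested.

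DNAJB9 rose with siCyclin K#1 and fell with siCyclin K#2, and the direct log2 difference, siCyclin K#1 minus siCyclin K#2, was 0.47 (adjusted p = 0.00044 in limma). SDF2L1 fell with siCyclin K#1 and rose with siCyclin K#2, with a difference of -0.71 (adjusted p = 3.8e-05). Both direct differences kept their direction and stayed past the threshold in every alternative run for this comparison that kept the adjusted p of 0.05 as the only threshold, and neither is past a fold change over 2, whereas the rise of each gene against scrambled did not.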

How the results depend on the processing

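No gene of the panel that was called changed direction under any alternative. Of the called genes, 28 of 33 with siCyclin K#1, 21 of 25 with siCyclin K#2, 18 of 24 between the siRNAs and 16 of 22 in the fit of both siRNAs remained called in every alternative that kept the adjusted p of 0.05 as the only threshold. Of the genes not called, 7 with siCyclin K#2, 2 between the siRNAs and 10 in the fit of both siRNAs passed under at least 1 of these alternatives, and 0 with siCyclin K#1. With a pseudocount of 1, genes past the thresholds of the methods went from 3 to 1 with siCyclin K#1 and from 1 to 0 for both siRNAs, and median-ratio rescaling also gave 0 for both. With siCyclin K#2, genes that fell went from 3 to 5 after median-ratio rescaling and 6 after quantile normalization, and the latter moved the share of calls that were higher from 88.0% to 76.9%. Requiring a fold change over 2 left 7 higher and 1 lower with siCyclin K#1, 3 and 0 with siCyclin K#2, 1 and 1 between the siRNAs, and 6 and 0 for both siRNAs. The average of both contrasts in the fit of 3 groups gave 7 lower genes in place of 3. Leaving out 1 library gave 1 to 3 lower genes for both siRNAs, 1 without scrambled replicate 1, and 0 to 2 genes past the thresholds of the methods, 0 without scrambled replicate 1 or without any 1 of the siCyclin K#1 libraries and 2 without scrambled replicate 2 or any 1 of the siCyclin K#2 libraries. Where a value or call moved, the cause was not tested.

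Replicate numbers did not pair the libraries: over 11243 genes the deviations of 9 pairs of same-numbered libraries had correlations of -0.0711 to 0.0379. With the replicate block, 24 genes rose and 8 fell with siCyclin K#1, 24 rose and 2 fell with siCyclin K#2, 12 were higher and 12 lower between the siRNAs, and 19 rose and 2 fell for both siRNAs.

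FPKM is relative to the reads of each library, so a common change of all RNA is not seen. With 3 libraries a group, single genes cannot pass an exact test between 2 groups, where the smallest p is 0.1.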
